A study of Mus musculus with 9 samples.

Results

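The genes of the metalloproteases that cut extracellular matrix and cell-surface proteins, and of their tissue inhibitors, were followed in eosinophils sorted from mouse quadriceps muscle. They were chosen by symbol alone: every gene whose symbol opens with Mmp, Adam, Adamts or Adamtsl and a number, and Timp1 to Timp4. That gave 84 of the 54146 genes in the table: 23 Mmp, 33 Adam, 19 Adamts, 5 Adamtsl and 4 Timp genes. Of these, 55 passed the filter on low counts and were tested.

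Eosinophils are granulocytes of type 2 inflammation that also enter injured and dystrophic muscle. Cells were sorted as live cells that carry CD45 and Siglec-F but lack CD11c, Gr1 and class II MHC, and low-input libraries were made from their total RNA. The 9 libraries form 3 groups of 3 by their titles, described as biological replicates. In mdx_IL5Tg, dystrophin-deficient mdx mice also carry an interleukin-5 transgene; mdx mice carry the dystrophin mutation alone; IL5Tg mice carry the transgene. All mice are labelled adult. For IL5Tg the titles and the strain entry disagree, since that entry is mdx in each of the 9 samples; the dystrophin genotype of that group rests on its titles. The labels do not give the promoter that drives the transgene, nor whether cells of several animals were pooled. Libraries are named by group and the S number of their column (S1 to S3 in mdx_IL5Tg, S4 to S6 in mdx, S7 to S9 in IL5Tg).

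Total counts lay between 26752780 and 58368283 per library. Il5 ranged from 664 to 724 CPM (read counts scaled to a common library size) in mdx_IL5Tg, from 0.265 to 0.402 in mdx and from 317 to 523 in IL5Tg, so the transgene label held in all 9 libraries. Dmd ranged from 1.64 to 2.74, from 2.74 to 6.93 and from 5.29 to 6.62 CPM in the same order of groups, and since the mdx allele is a point mutation its level does not check the dystrophin label. All 12 eosinophil markers were detected in every library, and their summed level was 5520 to 6010 CPM in mdx_IL5Tg, 2440 to 3200 CPM in mdx and 5990 to 16100 CPM in IL5Tg. Markers of other cells were also present, and several sets of them differed between groups. Fibroblast markers summed to 819 to 3010 CPM in mdx_IL5Tg, 4300 to 10700 CPM in mdx and 1010 to 2300 CPM in IL5Tg, and of the 11 tested 9 were lower and 1 (Pi16) higher in mdx_IL5Tg against mdx, and 8 were higher in mdx against IL5Tg. The gate requires CD45, which fibroblasts and muscle fibres lack, yet their markers were detected, and the source of this RNA was not tested. Tcf21 was the only gene of the fibroblast list at 0 in every mdx and IL5Tg library, and it was detected in mdx_IL5Tg. Macrophage markers summed to 2660 to 2830, 2050 to 2970 and 1690 to 2010 CPM in the same order of groups, with 15 of 19 tested lower and 1 (Adgre1) higher in mdx_IL5Tg against mdx and 16 higher in mdx against IL5Tg, while 7 were higher and 0 lower in mdx_IL5Tg against IL5Tg; Vsig4 was at 0 in mdx_IL5Tg and IL5Tg. Class II and dendritic cell markers, which the gate should remove, summed to 222 to 383 CPM in mdx_IL5Tg, 296 to 386 CPM in mdx and 63.1 to 68.8 CPM in IL5Tg, and of 10 tested 5 were higher in mdx_IL5Tg against IL5Tg and 6 in mdx against IL5Tg, while 1 was higher and 2 lower in mdx_IL5Tg against mdx. Myoblast and muscle stem cell markers summed to 38.7 to 70.3, 95.4 to 115 and 75.5 to 186 CPM in mdx_IL5Tg, mdx and IL5Tg. Of 9 tested, 7 were lower in mdx_IL5Tg against mdx. Although the sums of mdx and IL5Tg overlapped, 7 were higher and 1 (Vcam1) lower in mdx against IL5Tg, with a median log2 difference of 2.48. In mdx_IL5Tg against IL5Tg, 1 (Cdh15) was higher and 1 (Vcam1) lower. A lower level in these sorted pools can come from fewer cells of a type or from less RNA per cell, which cannot be told apart here. The part of other cells in the differences below was not tested. A pair of libraries stood apart: the mitochondrial share was 0.383% of counts in mdx S5 and 1.28% to 2.29% in the other 8, and the eosinophil markers of IL5Tg S7 summed to 16100 CPM.

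Matrix metalloproteases (MMPs) are zinc-dependent enzymes, secreted or tethered to the membrane, that are made as inactive precursors and together can cut most proteins of the extracellular matrix. ADAM proteins are membrane proteases, and the catalytically active ones shed receptors, cytokines and adhesion proteins from the cell surface. ADAMTS proteins are their secreted relatives, which cut proteoglycans and process collagen, and the ADAMTS-like proteins share their matrix-binding parts without the protease. TIMPs bind the active site of MMPs and of several ADAM and ADAMTS enzymes and block them. In muscle these families are known from the remodelling of matrix around regenerating fibres.

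All comparisons were made in 1 fit of the 9 libraries. They share groups, so they are not independent of each other, and each group enters 2 of them. The first, mdx_IL5Tg against IL5Tg, sets dystrophic against other transgenic mice. The second, mdx_IL5Tg against mdx, sets transgenic against other dystrophic mice. In mdx against IL5Tg the groups differ in both. Fold changes are on the log2 scale with their standard error (SE), p-values come from edgeR's quasi-likelihood test adjusted over all 15886 tested genes, and a gene is called higher or lower at an adjusted p under 0.05.

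In mdx_IL5Tg against IL5Tg, 6 of the 55 tested genes (10.9%) were higher and 1 (1.82%) was lower, beside 4.35% and 2.87% of all genes tested. That split was 7 higher and 4 lower with DESeq2, and 6 and 3 with libraries scaled by their totals only. In mdx_IL5Tg against mdx, 6 (10.9%) were higher and 28 (50.9%) lower, beside 10.1% and 11.5% of all genes. In mdx against IL5Tg, 24 (43.6%) were higher and 3 (5.45%) lower, beside 11.8% and 8.96% of all genes. The median log2 difference of the 55 genes was 0.04, -1.28 and 0.99 in these 3 comparisons, beside -0.05, -0.13 and 0.01 for all genes tested. The families divided unevenly: 14 of 16 Adamts and 8 of 16 Mmp genes were lower in mdx_IL5Tg against mdx, while the 6 genes that were higher there were Mmp25, Adam8, Adam19, Adam3, Adamtsl4 and Timp2. Of the 12 eosinophil markers, 4 were higher and 0 lower in that comparison, and 0 were higher and 6 lower in mdx against IL5Tg; their part in the results was not tested. These are counts over genes that passed the filter, which a gene can pass through the group where it is high.

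**Figure D1:**
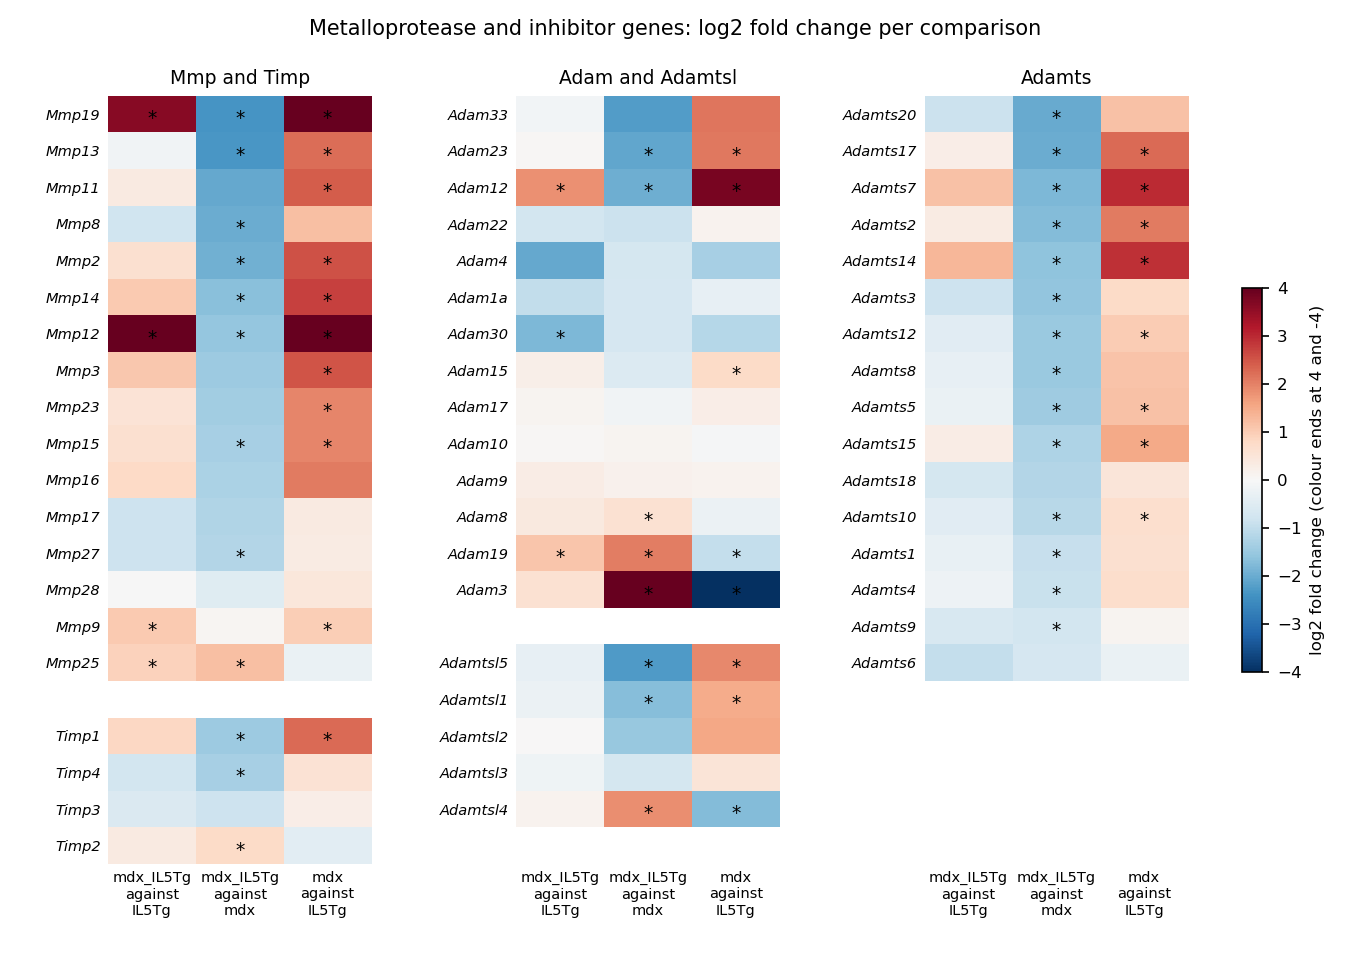
The 55 tested genes by family, with the log2 fold change in each of the 3 comparisons as colour (red higher in the group named first, blue lower; colour ends at 4 and -4) and a star where the edgeR adjusted p was under 0.05. The middle column is blue in most Mmp and Adamts rows, with 28 of 55 genes called lower, and red and starred in 6 genes.

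Those counts moved with single libraries. In mdx_IL5Tg against mdx, the 28 lower genes became 8 when mdx_IL5Tg S1 was left out, 13 for mdx_IL5Tg S3, 10 for mdx S4 and 15 for mdx S6. Calls in either direction over all genes, 3433 in the main fit, became 1521, 2502, 1882 and 2358 in the same order. In mdx against IL5Tg, the 24 higher genes became 15 without mdx S4, 16 without IL5Tg S7, 13 without IL5Tg S8 and 15 without IL5Tg S9. There the 3298 calls over all genes became 2220, 2625, 2131 and 1961. In mdx_IL5Tg against IL5Tg, the 6 higher genes became 10 without mdx_IL5Tg S3 and 4 without mdx_IL5Tg S1, mdx_IL5Tg S2, IL5Tg S7 or IL5Tg S8. The 1147 calls over all genes in that comparison became 1841, and then 110, 254, 256 and 469, in the order just given. Over 18 alternatives, 0 of 1212 values of called genes had the other sign. The genes were picked by their calls in these same libraries, so this count is no separate support for the directions. Of the 68 calls in all, 29 held in every alternative in which the gene was tested.

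The MMPs were led by 2 genes. Per kilobase of exon, Mmp25 was first in mdx_IL5Tg at 88.3 CPM per kb and Mmp9 second at 68.5; in IL5Tg the order was the same, at 46.5 and 32.8. In mdx, Mmp9 was first at 64.9 CPM per kb, followed by Mmp25 at 38.5 and Mmp19 at 25.8. Mmp25 and Mmp9 together made up most of the summed Mmp level in each group, with means of 51.8% and 39.7% in mdx_IL5Tg, 24.1% and 40.9% in mdx and 54.2% and 37.6% in IL5Tg. Mmp19 held 2.87% ± 1.16 of the sum in mdx_IL5Tg, 15.8% ± 5.61 in mdx and 0.47% ± 0.154 in IL5Tg (SD, n = 3 each).

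Mmp25 (ENSMUSG00000023903.7, GRCm38 chromosome 17, 23628311 to 23645277, minus strand) encodes a membrane-type MMP held by a lipid anchor and known from human leukocytes. Its level was 513, 447 and 445 CPM in mdx_IL5Tg, 197, 206 and 209 CPM in mdx and 206, 278 and 256 CPM in IL5Tg. All 3 mdx_IL5Tg libraries were above all 6 others, and mdx and IL5Tg overlapped. Mmp25 was higher in mdx_IL5Tg than in IL5Tg by 0.93 (edgeR adjusted p = 0.0075, SE 0.14) and than in mdx by 1.2 (edgeR adjusted p = 0.00034, SE 0.14). In mdx against IL5Tg the difference was -0.27 (edgeR adjusted p = 0.18, SE 0.14).

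Mmp9 (ENSMUSG00000017737.2, chromosome 2, 164940780 to 164955850), gelatinase B, which cuts denatured collagen and type IV collagen, followed another pattern. Its level was 288, 244 and 195 CPM in mdx_IL5Tg, 205, 248 and 237 CPM in mdx and 90.1, 103 and 155 CPM in IL5Tg. The 3 IL5Tg libraries were below the other 6, and mdx_IL5Tg and mdx overlapped. It was higher in mdx_IL5Tg against IL5Tg by 1.06 (edgeR adjusted p = 0.022, SE 0.21) and in mdx against IL5Tg by 0.99 (edgeR adjusted p = 0.009, SE 0.21), and differed by 0.08 (edgeR adjusted p = 0.82, SE 0.21) between mdx_IL5Tg and mdx. The call in mdx_IL5Tg against IL5Tg ended without mdx_IL5Tg S1, mdx_IL5Tg S2, IL5Tg S7 or IL5Tg S8, with log2 values of 0.96 to 1.10 and adjusted p of 0.057 to 0.11. The call in mdx against IL5Tg ended when mdx S5 and IL5Tg S7 were both left out (0.78, adjusted p = 0.054).

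Mmp19 (ENSMUSG00000025355.7, chromosome 10, 128790910 to 128800824), a secreted MMP that cuts basement membrane proteins, took 3 separate levels. It stood at 21.3, 23.9 and 8.35 CPM in mdx_IL5Tg, 136, 63.6 and 73.7 CPM in mdx and 1.25, 0.941 and 2.16 CPM in IL5Tg. No 2 groups overlapped, with mdx above mdx_IL5Tg and mdx_IL5Tg above IL5Tg. The log2 difference was 3.63 (edgeR adjusted p = 0.0039, SE 0.47) in mdx_IL5Tg against IL5Tg, -2.35 (edgeR adjusted p = 0.0039, SE 0.42) in mdx_IL5Tg against mdx and 5.98 (edgeR adjusted p = 4.6e-05, SE 0.51) in mdx against IL5Tg. All 3 calls held in every alternative. Exons of Tmem198b and Gm47093 on the opposite strand cover 28.3% of the exon length of Mmp19, and the strand setting is not given in the sources used here, so some reads could be theirs. Tmem198b itself had 37 to 104 counts per library in mdx_IL5Tg, 76 to 188 in mdx and 38 to 73 in IL5Tg, where Mmp19 had 320 to 1079, 1900 to 6495 and 29 to 58, so in IL5Tg the level of Mmp19 is uncertain.

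Mmp12 (ENSMUSG00000049723.14, chromosome 9, 7344381 to 7369499), the elastase of macrophages, was ordered like Mmp19 at a lower level. It was at 2.86, 4 and 4.07 CPM in mdx_IL5Tg, 14.3, 6.73 and 10.7 CPM in mdx and 0.224, 0.0649 and 0 CPM in IL5Tg. In counts, the mdx_IL5Tg libraries held 145, 159 and 156, and those of IL5Tg 7, 2 and 0. The 3 groups did not overlap. The log2 difference was 5.14 (edgeR adjusted p = 0.0024, SE 0.60) in mdx_IL5Tg against IL5Tg and 6.68 (edgeR adjusted p = 6.6e-05, SE 0.61) in mdx against IL5Tg, and these sizes rest on few counts: without IL5Tg S7 they were 6.64 and 8.07. From summed counts, the level was 35.3 times as high in mdx_IL5Tg as in IL5Tg (95% interval 18.4 to 77.7, counting error only). Mmp12 was lower in mdx_IL5Tg than in mdx (log2 -1.54, SE 0.42, edgeR adjusted p = 0.026), a call that ended without mdx S4, mdx S6 or mdx_IL5Tg S1 (-1.43 to -1.18, adjusted p 0.077 to 0.12).

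**Figure D2:**
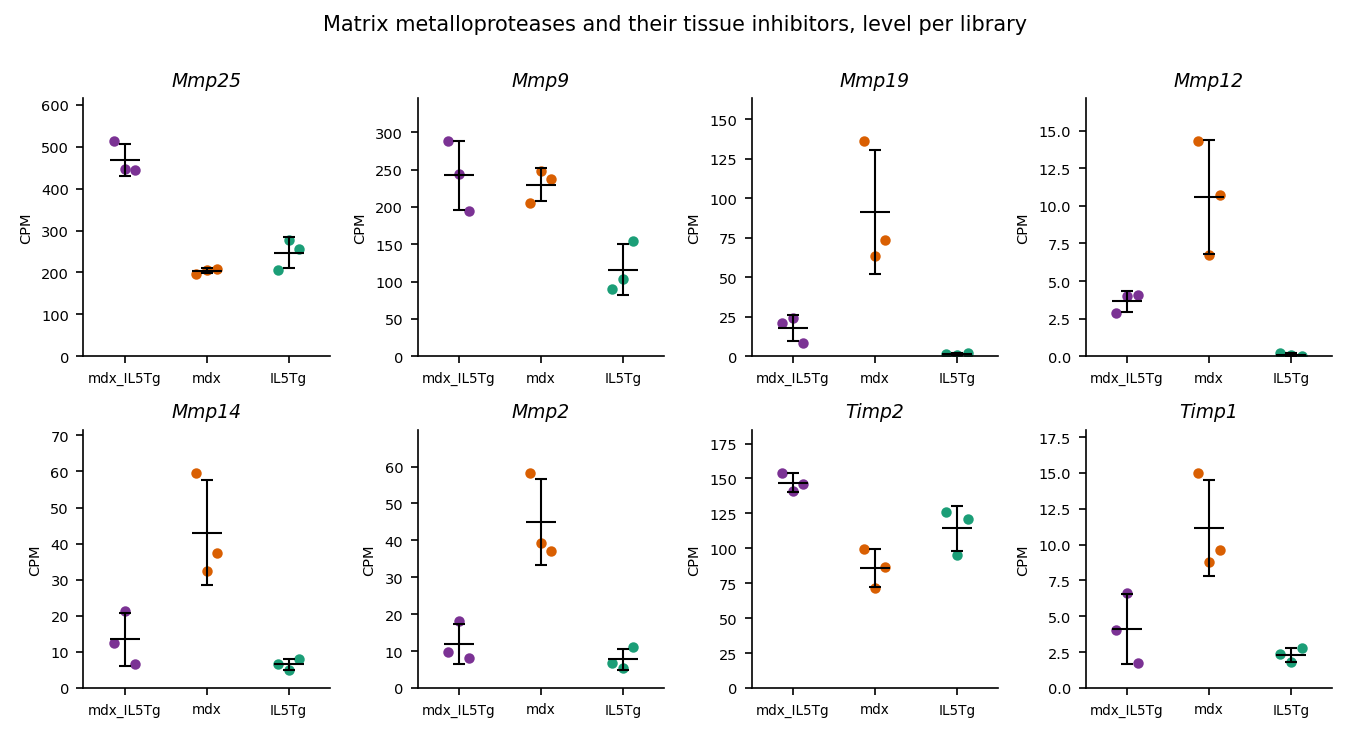
CPM of 6 Mmp and 2 Timp genes in each library (points, coloured by group), with mean and SD (bars, n = 3 per group); each panel has its own axis from 0. Mmp25 and Timp2 were highest in mdx_IL5Tg, Mmp9 was lowest in IL5Tg, and Mmp19, Mmp12, Mmp14, Mmp2 and Timp1 were highest in mdx.

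Mmp2 (ENSMUSG00000031740.8), gelatinase A, and Mmp14 (ENSMUSG00000000957.11), the membrane-type MMP that activates it at the cell surface, were highest in mdx. Mmp2 was at 9.62, 18.2 and 8.07 CPM in mdx_IL5Tg, 58.3, 39.3 and 37.1 CPM in mdx and 6.75, 5.42 and 11 CPM in IL5Tg. The mdx libraries were above the other 6, which overlapped. It was lower in mdx_IL5Tg than in mdx (log2 -1.91, SE 0.35, edgeR adjusted p = 0.0043) and higher in mdx than in IL5Tg (2.54, SE 0.36, edgeR adjusted p = 0.00094), and both calls held in every alternative. Mmp14 was at 12.5, 21.2 and 6.68 CPM in mdx_IL5Tg, 59.6, 32.3 and 37.3 CPM in mdx and 6.5, 5.03 and 7.94 CPM in IL5Tg. It gave -1.68 (edgeR adjusted p = 0.012, SE 0.38) in mdx_IL5Tg against mdx, which ended without mdx_IL5Tg S1 or mdx S4 (-1.52 to -1.29, adjusted p 0.056 to 0.063), and 2.73 (edgeR adjusted p = 0.0011, SE 0.40) in mdx against IL5Tg, which held throughout. The mdx_IL5Tg against IL5Tg values were 0.63 (edgeR adjusted p = 0.26, SE 0.34) for Mmp2 and 1.06 (edgeR adjusted p = 0.11, SE 0.38) for Mmp14; DESeq2 called Mmp14 (adjusted p = 0.037).

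Mmp15, a second transmembrane MMP, averaged 5.83 ± 3.12 CPM in mdx_IL5Tg, 14.6 ± 1.81 CPM in mdx and 3.76 ± 0.975 CPM in IL5Tg (SD, n = 3 each). It was higher in mdx against IL5Tg by 1.95 (edgeR adjusted p = 0.004, SE 0.36), which held in every alternative. It was lower in mdx_IL5Tg against mdx (log2 -1.32, SE 0.35, edgeR adjusted p = 0.022), which ended without mdx_IL5Tg S1, mdx_IL5Tg S3, mdx S4 or mdx S6 (-1.31 to -0.94, adjusted p 0.051 to 0.12). Fibroblasts are known to make Mmp2 and Mmp14, and per library the fibroblast marker sum was 1520, 3010 and 819 CPM in mdx_IL5Tg, 6490, 10700 and 4300 CPM in mdx and 1470, 1010 and 2300 CPM in IL5Tg. Mmp2, Mmp14 and Mmp15 were each highest in S2 among the mdx_IL5Tg libraries, as that sum was. Among the IL5Tg libraries each was highest in S9 and lowest in S8, as that sum was. Among the mdx libraries each was highest in S4 and the sum in S5. Whether the fibroblast sum bears on these genes was not tested.

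A run of 10 Mmp genes lies within 427.1 kb of chromosome 9 (7272514 to 7699585), the cluster that holds the collagenase, stromelysin and macrophage elastase genes, and 5 of them were tested: Mmp13, Mmp12, Mmp3, Mmp8 and Mmp27. Apart from Mmp12 they were rare, with means of 0.406 to 1.14 CPM in mdx_IL5Tg, 1.79 to 3.09 CPM in mdx and 0.44 to 1.86 CPM in IL5Tg. Mmp13, a collagenase, was at 0.178, 0.780 and 0.261 CPM in mdx_IL5Tg, 3.56, 1.47 and 1.11 CPM in mdx and 0.576, 0.260 and 0.485 CPM in IL5Tg. Mmp3, stromelysin-1, was at 0.652, 2.49 and 0.287 CPM in mdx_IL5Tg, 2.60, 3.38 and 3.30 CPM in mdx and 0.864, 0.130 and 0.634 CPM in IL5Tg. Both were highest in mdx, with no overlap between mdx and the other groups.

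In mdx_IL5Tg against mdx, Mmp13 (log2 -2.34, SE 0.64, edgeR adjusted p = 0.025), Mmp8, the collagenase of neutrophils (-1.99, SE 0.53, edgeR adjusted p = 0.023), and Mmp27 (-1.17, SE 0.36, edgeR adjusted p = 0.04) were lower, and Mmp3 gave -1.44 (edgeR adjusted p = 0.17, SE 0.70). In mdx against IL5Tg, Mmp13 was higher by 2.22 (edgeR adjusted p = 0.033, SE 0.64) and Mmp3 by 2.5 (edgeR adjusted p = 0.039, SE 0.76), while Mmp8 gave 1.19 (edgeR adjusted p = 0.12, SE 0.51) and Mmp27 0.33 (edgeR adjusted p = 0.53, SE 0.35). Each of these calls ended without at least 1 library. Mmp13 ended in mdx_IL5Tg against mdx without mdx_IL5Tg S1, mdx_IL5Tg S3 or mdx S4 (adjusted p up to 0.14) and in mdx against IL5Tg without mdx S4, IL5Tg S7, IL5Tg S8 or IL5Tg S9 (up to 0.14); it was -3.12 without mdx_IL5Tg S2, and -1.59 and 1.52 without mdx S4. Mmp8 ended without mdx_IL5Tg S2, mdx_IL5Tg S3, mdx S4 or mdx S6 (0.056 to 0.085), Mmp27 without any library but mdx S5 (up to 0.17), and Mmp3 without any library but mdx_IL5Tg S2 or S3 (up to 0.11). The neutrophil markers, which bear on Mmp8, summed to 120 to 175 CPM in mdx_IL5Tg, 15.5 to 369 CPM in mdx and 424 to 1400 CPM in IL5Tg.

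The promoters of MMP genes of this cluster are known for a site of the transcription factor AP-1 close to the start. The letters TGANTCA, searched on both strands in the 300 bases from 250 before to 50 after each RefSeq start (GRCm38.p6), were found in 4 of 40 windows of 36 tested genes (10%) and in 2565 of 32851 background windows (7.81%). Windows of 1 chromosome were left out of both counts. The 4 windows belong to Mmp13, Mmp3, Mmp12 (a second start, 1 of its windows) and Adam19. They are shown because 3 are neighbours whose letters stand at nearly the same place. Each line gives 130 bases, 5′ to 3′ on the plus strand, with the match in capitals; the first 3 stretches end at the base before the start, and that of Adam19 ends earlier.
Mmp13, chr9:7272384-7272513: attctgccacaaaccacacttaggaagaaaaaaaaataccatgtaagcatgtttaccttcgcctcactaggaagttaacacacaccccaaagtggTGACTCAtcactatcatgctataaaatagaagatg
Mmp12, chr9:7347244-7347373: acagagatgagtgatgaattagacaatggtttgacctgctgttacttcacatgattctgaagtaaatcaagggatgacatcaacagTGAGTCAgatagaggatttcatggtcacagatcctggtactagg
Mmp3, chr9:7445692-7445821: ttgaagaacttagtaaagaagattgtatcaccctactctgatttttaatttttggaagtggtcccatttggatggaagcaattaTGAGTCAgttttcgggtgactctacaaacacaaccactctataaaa
Adam19, chr11:46055794-46055923: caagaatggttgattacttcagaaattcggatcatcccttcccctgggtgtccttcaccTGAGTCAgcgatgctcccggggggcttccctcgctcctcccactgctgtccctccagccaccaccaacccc
The first base of the match stands at -35 in Mmp13, -44 in Mmp12, -46 in Mmp3 and -131 in Adam19, counted from the start. In mdx_IL5Tg against IL5Tg, Mmp12 was higher by 5.14, Mmp13 gave -0.13 (edgeR adjusted p = 0.93, SE 0.66), Mmp3 1.07 (edgeR adjusted p = 0.38, SE 0.75), and Adam19 was higher by 1.11. For Mmp12, Mmp13 and Mmp3 the differences had the same sign in the other comparisons, at -1.54, -2.34 and -1.44 in mdx_IL5Tg against mdx, where Mmp3 was not called, and at 6.68, 2.22 and 2.5 in mdx against IL5Tg, and no test between the genes was run. The ETS-type letters AGGAAG, on both strands, were in 13 of the 40 windows (32.5%) and in 35.4% of the background windows.

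Mmp23 and Mmp11 (stromelysin-3) were also higher in mdx against IL5Tg. Mmp23 averaged 0.743 ± 0.470 CPM in mdx_IL5Tg, 1.95 ± 0.421 CPM in mdx and 0.507 ± 0.278 CPM in IL5Tg, and Mmp11 averaged 0.115 ± 0.0877, 0.492 ± 0.167 and 0.0892 ± 0.0340 CPM in the same order (SD, n = 3). Their log2 differences were 1.95 (edgeR adjusted p = 0.03, SE 0.55) and 2.42 (edgeR adjusted p = 0.039, SE 0.73). Mmp23 lost its call without mdx S4, mdx S5, IL5Tg S7 or IL5Tg S8 (1.55 to 1.93, adjusted p 0.053 to 0.10), and Mmp11 without any library but mdx_IL5Tg S2 or S3 (2.1 to 2.81, adjusted p 0.051 to 0.14). The 3 remaining membrane-anchored or secreted MMPs tested, Mmp16, Mmp17 and Mmp28, passed the threshold of edgeR in none of the 3 comparisons, with the smallest adjusted p at 0.054 for Mmp17 in mdx_IL5Tg against mdx (-1.2, SE 0.40). Other tools called Mmp17 lower there (adjusted p = 0.028 with DESeq2, 0.031 with limma voom and 0.017 with voom quality weights), and voom quality weights called Mmp16 higher in mdx against IL5Tg (2.52, adjusted p = 0.048). Of the other Mmp genes, Mmp10, Mmp1b, Mmp21 and Mmp24 had counts under the filter, and Mmp1a, Mmp7 and Mmp20 had 0 counts in all 9 libraries.

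Of the inhibitors, Timp2 held most of the summed level per kilobase, with means of 77.3% in mdx_IL5Tg, 46.8% in mdx and 69.5% in IL5Tg. Timp2 (ENSMUSG00000017466.9, chromosome 11, 118301069 to 118355740), which also helps Mmp14 to activate Mmp2, was at 154, 141 and 146 CPM in mdx_IL5Tg, 99.2, 71.9 and 86.3 CPM in mdx and 126, 95.5 and 121 CPM in IL5Tg. The mdx_IL5Tg libraries were above the other 6, and mdx and IL5Tg overlapped. It was higher in mdx_IL5Tg against mdx by 0.78 (edgeR adjusted p = 0.0063, SE 0.15), which ended when libraries were scaled by their totals only (0.45, adjusted p = 0.076). The other comparisons gave 0.36 (edgeR adjusted p = 0.15, SE 0.15) against IL5Tg and -0.41 (edgeR adjusted p = 0.075, SE 0.15) in mdx against IL5Tg.

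Timp1 (ENSMUSG00000001131.11, chromosome X, 20870166 to 20874735), the secreted inhibitor induced in inflammation and wound repair, moved the other way. It was at 4.01, 6.60 and 1.75 CPM in mdx_IL5Tg, 15.0, 8.80 and 9.65 CPM in mdx and 2.34, 1.78 and 2.80 CPM in IL5Tg. The mdx libraries were above the other 6, which overlapped. In mdx it was above IL5Tg by 2.28 (edgeR adjusted p = 0.0048, SE 0.43), which held in every alternative. It was lower in mdx_IL5Tg than in mdx (log2 -1.44, SE 0.41, edgeR adjusted p = 0.031), which ended without mdx_IL5Tg S1, mdx_IL5Tg S3, mdx S4, mdx S6, IL5Tg S7 or IL5Tg S9 (-1.43 to -0.97, adjusted p 0.055 to 0.14).

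Timp3, which is bound to matrix and also blocks Adam17, averaged 51.6 ± 22.8 CPM in mdx_IL5Tg, 92.2 ± 23.8 CPM in mdx and 77.0 ± 13.8 CPM in IL5Tg and was called by edgeR in no comparison (lowest adjusted p = 0.068, mdx_IL5Tg against mdx, log2 -0.84). In that comparison it was called lower with DESeq2 (adjusted p = 0.041), limma voom (0.044), voom quality weights (0.0074) and library totals only (0.028), and without mdx_IL5Tg S2 (0.012) or mdx S5 (0.041). Timp4 averaged 3.15 ± 1.15, 7.92 ± 1.96 and 5.23 ± 2.42 CPM in the same order (SD, n = 3). Timp4 was lower in mdx_IL5Tg than in mdx (log2 -1.33, SE 0.37, edgeR adjusted p = 0.027), which ended without mdx_IL5Tg S1, mdx_IL5Tg S3, mdx S5 or mdx S6 (-1.2 to -1.04, adjusted p 0.057 to 0.13). In mdx_IL5Tg against IL5Tg, edgeR called 0 of the 4 Timp genes, with 1 at an unadjusted p under 0.05; DESeq2 and limma voom called 0, and voom with quality weights called Timp2 higher (0.35, adjusted p = 0.042).

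The sum of all Mmp levels per kilobase was 172 ± 22.2 in mdx_IL5Tg, 160 ± 11.3 in mdx and 86.3 ± 14.2 in IL5Tg (CPM per kb, mean ± SD, n = 3), and the Timp sum was 49.2 ± 5.12, 47.2 ± 9.16 and 42.3 ± 6.60. The ratio of the Mmp sum to the Timp sum was 3.83, 3.25 and 3.38 in mdx_IL5Tg, 3.08, 4.04 and 3.24 in mdx and 1.52, 2.5 and 2.24 in IL5Tg. All 6 libraries of the dystrophic groups lay above the 3 of IL5Tg, which is a description of RNA levels only. The Adamts sum was 55.7 ± 20.5, 106 ± 13 and 68.0 ± 14.1 CPM per kb, and the Adamtsl sum 5.49 ± 0.719, 2.79 ± 0.376 and 5.14 ± 1.5.

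**Figure D3:**
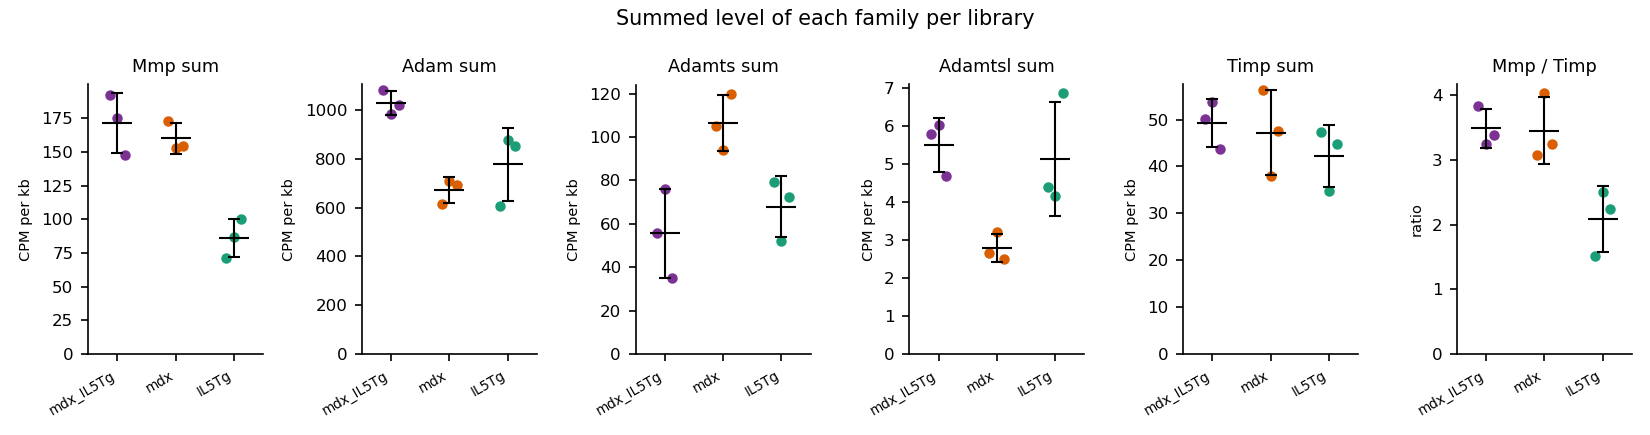
Sum over the genes of each family of the level per kilobase of exon (CPM per kb) in each library, and the ratio of the Mmp to the Timp sum; points are libraries, bars mean and SD (n = 3 per group), and each axis starts at 0. The Mmp sum and the ratio are lowest in IL5Tg, the Adamts sum is highest in mdx and the Adamtsl sum lowest in mdx.

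Among the Adam genes a single member dominated. Adam8 (ENSMUSG00000025473.16, chromosome 7, 139978932 to 139992562, minus strand), a sheddase of leukocytes that cuts adhesion receptors, held 53.7% to 71.7% of all counts of the 84 genes in a library. Its level was 4440, 3990 and 4170 CPM in mdx_IL5Tg, 2450, 2950 and 2860 CPM in mdx and 2440, 3650 and 3540 CPM in IL5Tg. The mdx_IL5Tg libraries were above all others, and mdx and IL5Tg overlapped. It was higher in mdx_IL5Tg against mdx by 0.61 (edgeR adjusted p = 0.029, SE 0.17), which ended without mdx S4, mdx S6 or mdx_IL5Tg S1 and with library totals only (0.29 to 0.73, adjusted p 0.054 to 0.14). Against IL5Tg it gave 0.39 (edgeR adjusted p = 0.17, SE 0.17).

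Adam19 (ENSMUSG00000011256.16, chromosome 11, 46055992 to 46147343), also called meltrin beta, a sheddase known for neuregulins, differed in every comparison. It was at 411, 407 and 387 CPM in mdx_IL5Tg, 102, 91.2 and 98.0 CPM in mdx and 186, 167 and 207 CPM in IL5Tg. No 2 groups overlapped, and mdx_IL5Tg was highest and mdx lowest. The log2 difference was 1.11 (edgeR adjusted p = 0.0018, SE 0.12) in mdx_IL5Tg against IL5Tg, 2.05 (edgeR adjusted p = 4.3e-06, SE 0.13) in mdx_IL5Tg against mdx and -0.94 (edgeR adjusted p = 0.00064, SE 0.12) in mdx against IL5Tg. All 3 calls held in every alternative. Antisense exons of Gm16033 and Gm16034 cover 10.1% of its exon length.

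Adam12 (ENSMUSG00000054555.11, chromosome 7, 133883199 to 134232146), or meltrin alpha, made by mesenchymal cells and regenerating muscle, ran in the opposite order to Adam19 between mdx and the others. It was at 2.01, 3.52 and 1.54 CPM in mdx_IL5Tg, 11.2, 7.36 and 9.02 CPM in mdx and 0.416, 0.681 and 0.895 CPM in IL5Tg. The 3 groups did not overlap. Adam12 was lower in mdx_IL5Tg than in mdx (log2 -1.96, SE 0.36, edgeR adjusted p = 0.0043) and higher in mdx than in IL5Tg (3.79, SE 0.40, edgeR adjusted p = 0.00017), and both held in every alternative. The rise in mdx_IL5Tg against IL5Tg of 1.83 (edgeR adjusted p = 0.027, SE 0.39) ended without mdx_IL5Tg S1, mdx_IL5Tg S2, IL5Tg S7 or IL5Tg S8 (1.47 to 1.99, adjusted p 0.06 to 0.081).

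Adam3 (ENSMUSG00000031553.16, chromosome 8, 24677225 to 24725852), known as a sperm surface protein of the testis, was rare but unevenly spread. It had 32, 21 and 33 counts in mdx_IL5Tg, 0, 0 and 1 in mdx and 15, 13 and 11 in IL5Tg. All mdx libraries lay below the rest. From summed counts, its level was 79.6 times as high in mdx_IL5Tg as in mdx (95% interval 13.9 to 3180) and in mdx 0.0191 of that in IL5Tg (0.000472 to 0.113), intervals that cover counting error only and rest on a single count in mdx. Without mdx S6, which holds that count, mdx was at 0. edgeR called it higher in mdx_IL5Tg against mdx (adjusted p = 0.00098) and lower in mdx against IL5Tg (adjusted p = 0.0018), and both held in the 17 alternatives that tested it. Its neighbours within 414.7 kb, Adam18, Adam5 and Adam32, were under the filter, and Adam9, at the end of this row of 5 genes, was called in no comparison.

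**Figure D4:**
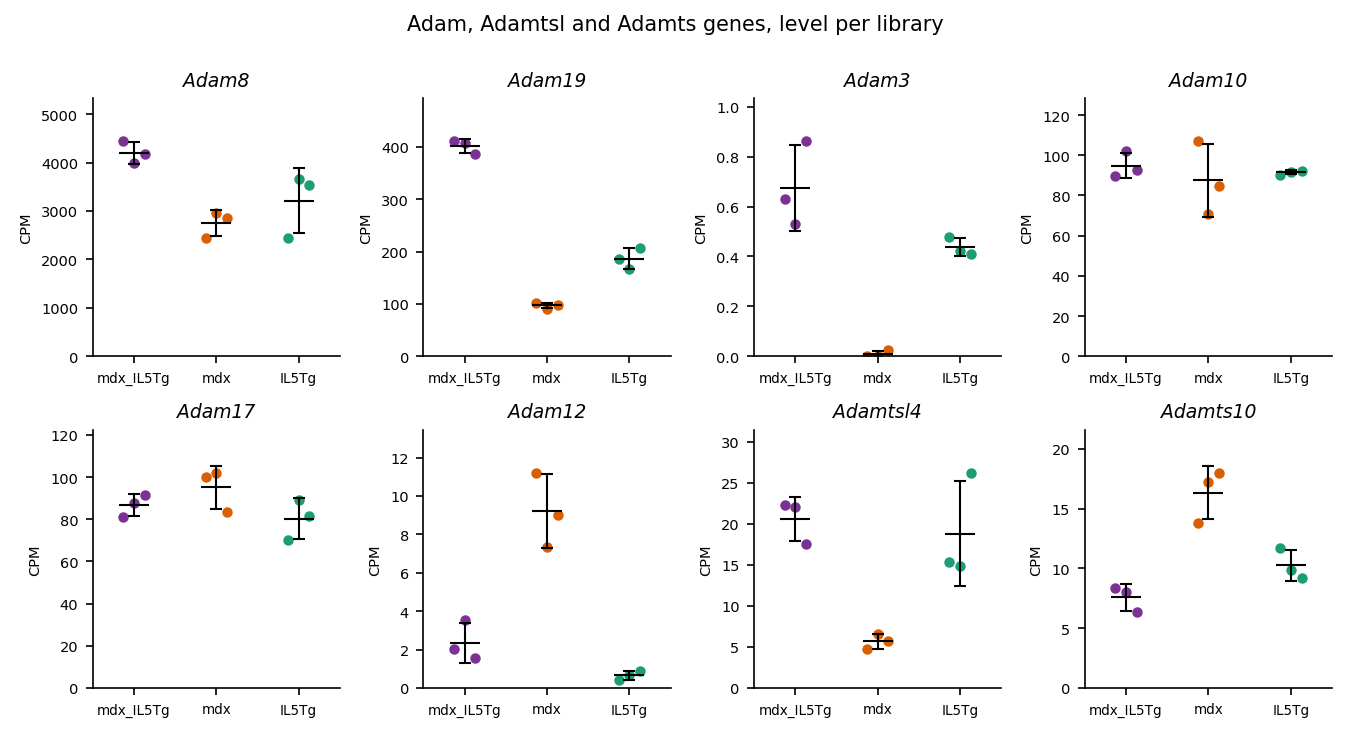
CPM of 6 Adam genes, Adamtsl4 and Adamts10 in each library (points, coloured by group), with mean and SD (bars, n = 3 per group); each panel has its own axis from 0. Adam19 separates all 3 groups, Adam3 and Adamtsl4 are lowest in mdx, Adam12 and Adamts10 are highest in mdx, and the groups overlap for Adam10 and Adam17.

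The 2 most studied sheddases showed small differences. Adam10, which cuts Notch and the amyloid precursor protein, was at 89.9, 102 and 92.6 CPM in mdx_IL5Tg, 107, 70.9 and 84.8 CPM in mdx and 90.4, 91.8 and 92.4 CPM in IL5Tg. Adam17, which releases tumour necrosis factor and ligands of the epidermal growth factor receptor, was at 81.3, 87.6 and 91.3 CPM in mdx_IL5Tg, 100, 102 and 83.4 CPM in mdx and 70.1, 89.3 and 81.5 CPM in IL5Tg. The groups overlapped for both. The log2 differences lay between -0.06 and 0.11 (SE 0.15) for Adam10 and between -0.14 and 0.25 (SE 0.13) for Adam17, with edgeR adjusted p from 0.21 to 0.87. With library totals only, Adam17 was called lower in mdx_IL5Tg against mdx (-0.45, adjusted p = 0.021). Adam9, a widely expressed sheddase, averaged 88.4 ± 1.77, 78.8 ± 3.14 and 72.2 ± 10.7 CPM in mdx_IL5Tg, mdx and IL5Tg (SD, n = 3), with adjusted p from 0.17 to 0.5.

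Adam15, Adam23 and Adam30 were called with less stability. Adam15 averaged 45.0 ± 12.2 CPM in mdx_IL5Tg, 65.5 ± 4.96 CPM in mdx and 38.4 ± 7.27 CPM in IL5Tg (SD, n = 3) and was higher in mdx than in IL5Tg by 0.77 (edgeR adjusted p = 0.025, SE 0.21), which ended without mdx_IL5Tg S1, mdx S4, mdx S5, mdx S6, IL5Tg S8 or IL5Tg S9, or with mdx S5 and IL5Tg S7 both left out (0.59 to 0.82, adjusted p 0.05 to 0.12). Antisense exons cover 20.6% of its length. Adam23, an ADAM without protease activity known from neurons, was at 0.277, 0.982 and 0.365 CPM in mdx_IL5Tg, 3.68, 0.636 and 2.44 CPM in mdx and 0.512, 0.357 and 0.708 CPM in IL5Tg, with overlap because of mdx S5. Adam23 was lower in mdx_IL5Tg than in mdx (log2 -2.07, SE 0.65, edgeR adjusted p = 0.044) and higher in mdx than in IL5Tg (2.11, SE 0.66, edgeR adjusted p = 0.045). Both calls ended without mdx_IL5Tg S1, mdx S4, mdx S6 or any IL5Tg library and with limma voom, and the first also without mdx_IL5Tg S3 (adjusted p 0.051 to 0.19). Without mdx S4 the values were -1.43 and 1.52, and without mdx_IL5Tg S2 the first was -2.71.

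Adam30, known from the testis, was the 1 gene that edgeR called lower in mdx_IL5Tg against IL5Tg. It was at 1.24, 2.52 and 4.20 CPM in mdx_IL5Tg, 4.23, 3.48 and 4.80 CPM in mdx and 7.17, 12.8 and 7.75 CPM in IL5Tg. The IL5Tg libraries were above all others. The log2 difference was -1.81 (edgeR adjusted p = 0.03, SE 0.40), and it ended without mdx_IL5Tg S1, mdx_IL5Tg S2 or any of the IL5Tg libraries (-1.92 to -1.42, adjusted p 0.062 to 0.12). In mdx against IL5Tg, Adam30 gave -1.15 (edgeR adjusted p = 0.06). There 8 of 18 alternatives called it lower, DESeq2 among them (-1.2, adjusted p = 0.014). Adam1a, Adam4, Adam22 and Adam33 were called by edgeR in no comparison. DESeq2 called Adam1a lower in mdx_IL5Tg against IL5Tg (-1.01, adjusted p = 0.016), limma voom called Adam33 lower in mdx_IL5Tg against mdx (-2.63, adjusted p = 0.046), and voom quality weights called each of the 4 in at least 1 comparison. The counts of Adam1a are uncertain, since 63.7% of its exon length overlaps Mapkapk5, Tmem116 or Gm42878. Adam21, Adam11, Adam1b, Adam5, Adam32, Adam28 and Adam18 were under the filter. Adam2, Adam6a, Adam6b, Adam7, Adam20, Adam24, Adam25, Adam26a, Adam26b, Adam29, Adam34 and Adam39 had 0 counts in all libraries. RSEM shares reads among near-identical copies by estimation, so low values of Adam1a and Adam1b or of Mmp1a and Mmp1b may be split between the copies.

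The Adamts family was the most uniform, with 14 of 16 tested genes lower in mdx_IL5Tg against mdx and 8 of 16 higher in mdx against IL5Tg. The median log2 difference was -1.46 in mdx_IL5Tg against mdx, with a range of -2.01 to -0.66, and 1.09 in mdx against IL5Tg, with a range of -0.28 to 2.98. In mdx_IL5Tg against IL5Tg the median was -0.31 and edgeR called 0 of 16, with 5 at an unadjusted p under 0.05; limma voom also called 0, and DESeq2 and voom with quality weights each called Adamts6 and Adamts9 lower (DESeq2 -0.95 and -0.64, adjusted p = 0.045 and 0.026). The first 3 by level per kilobase were the same in every group: Adamts4 at 28.0, 52.0 and 32.1 CPM per kb in mdx_IL5Tg, mdx and IL5Tg, then Adamts1 at 18.0, 34.3 and 22.2, then Adamts9 at 6.22, 10.4 and 9.72.

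The calls that held in every alternative were those of Adamts10 and Adamts17, which bind fibrillin, in mdx_IL5Tg against mdx, and of Adamts2, Adamts14, Adamts7 and Adamts17 in mdx against IL5Tg. Adamts10 was at 8.35, 8.06 and 6.32 CPM in mdx_IL5Tg, 13.8, 17.2 and 18.0 CPM in mdx and 11.7, 9.87 and 9.21 CPM in IL5Tg. The 3 groups did not overlap. It was lower in mdx_IL5Tg than in mdx (log2 -1.10, SE 0.19, edgeR adjusted p = 0.0037), while its call in mdx against IL5Tg (0.67, SE 0.19, edgeR adjusted p = 0.033) ended without mdx_IL5Tg S1, mdx_IL5Tg S2, mdx S5, mdx S6 or any IL5Tg library (0.55 to 0.73, adjusted p 0.054 to 0.15). Adamts17 was at 0.731, 0.730 and 0.522 CPM in mdx_IL5Tg, 3.39, 2.61 and 1.93 CPM in mdx and 0.640, 0.681 and 0.298 CPM in IL5Tg. The mdx libraries were above the other 6, and the log2 difference was -1.99 (edgeR adjusted p = 0.0064, SE 0.39) in mdx_IL5Tg against mdx and 2.28 (edgeR adjusted p = 0.0035, SE 0.41) in mdx against IL5Tg.

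Adamts2, Adamts3 and Adamts14 remove the amino-terminal propeptide of fibrillar collagens, and all 3 were lower in mdx_IL5Tg than in mdx. Adamts2 was at 6.26, 9.24 and 3.00 CPM in mdx_IL5Tg, 24.4, 19.2 and 18.2 CPM in mdx and 4.93, 2.86 and 6.90 CPM in IL5Tg. The mdx libraries were above the other 6, which overlapped. It was lower in mdx_IL5Tg than in mdx (log2 -1.74, SE 0.40, edgeR adjusted p = 0.012), which ended without mdx_IL5Tg S1 (-1.65, adjusted p = 0.059), and higher in mdx than in IL5Tg (2.07, SE 0.40, edgeR adjusted p = 0.0054). Adamts14 gave -1.61 (edgeR adjusted p = 0.046, SE 0.51) and 2.93 (edgeR adjusted p = 0.0053, SE 0.56) in these comparisons, and the first was -2.36 without mdx_IL5Tg S2 and ended without any other library (adjusted p 0.069 to 0.19). Adamts3 gave -1.59 (edgeR adjusted p = 0.027, SE 0.44), which ended without any mdx_IL5Tg library, mdx S4 or mdx S5 (adjusted p 0.056 to 0.11), and 0.76 (edgeR adjusted p = 0.23, SE 0.43).

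Adamts7 and Adamts12 cut cartilage oligomeric matrix protein. Adamts7 was at 1.15, 2.37 and 0.627 CPM in mdx_IL5Tg, 5.61, 5.22 and 3.57 CPM in mdx and 0.704, 0.584 and 0.522 CPM in IL5Tg, with mdx above the other 6 libraries. It gave -1.80 (edgeR adjusted p = 0.015, SE 0.43) in mdx_IL5Tg against mdx and 2.98 (edgeR adjusted p = 0.0017, SE 0.47) in mdx against IL5Tg. Adamts12 gave -1.49 (edgeR adjusted p = 0.011, SE 0.33) and 1.03 (edgeR adjusted p = 0.046, SE 0.33). The mdx_IL5Tg against mdx calls of both ended without mdx_IL5Tg S1 or mdx S4 (adjusted p 0.054 to 0.085). Adamts12 lost its call in mdx against IL5Tg without mdx_IL5Tg S1, mdx S4, mdx S6 or any IL5Tg library (adjusted p 0.065 to 0.15).

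The proteoglycanases Adamts1, Adamts4, Adamts5, Adamts8, Adamts9, Adamts15 and Adamts20 cut aggrecan or versican, and all 7 were lower in mdx_IL5Tg than in mdx. Adamts4, the most abundant, was at 140, 186 and 77.6 CPM in mdx_IL5Tg, 228, 243 and 279 CPM in mdx and 177, 116 and 169 CPM in IL5Tg. Adamts1 was at 92.8, 130 and 62.6 CPM in mdx_IL5Tg, 192, 133 and 219 CPM in mdx and 143, 85.4 and 124 CPM in IL5Tg, and the nearest values of the first 2 groups were 130 and 133. Adamts9 was at 88.5, 120 and 71.6 CPM in mdx_IL5Tg, 159, 135 and 175 CPM in mdx and 170, 129 and 140 CPM in IL5Tg. For these 3 the mdx_IL5Tg libraries were below all mdx libraries, and mdx_IL5Tg and IL5Tg overlapped for Adamts4 and Adamts1.

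In mdx_IL5Tg against mdx the log2 differences were -0.89 for Adamts4 (edgeR adjusted p = 0.04, SE 0.27), -0.93 for Adamts1 (edgeR adjusted p = 0.038, SE 0.28), -0.74 for Adamts9 (edgeR adjusted p = 0.022, SE 0.20), -1.43 for Adamts5 (edgeR adjusted p = 0.0098, SE 0.31), -1.48 for Adamts8 (edgeR adjusted p = 0.02, SE 0.38), -1.22 for Adamts15 (edgeR adjusted p = 0.03, SE 0.35) and -2.01 for Adamts20 (edgeR adjusted p = 0.035, SE 0.59). Every one of these 7 calls ended without at least 1 library. Adamts5 ended without mdx_IL5Tg S1 alone (-1.17, adjusted p = 0.065). Adamts8 ended without mdx_IL5Tg S2, mdx_IL5Tg S3, mdx S4 or mdx S6 (up to 0.082), and Adamts15 without mdx_IL5Tg S1, mdx_IL5Tg S3, mdx S4, mdx S5 or IL5Tg S9 (up to 0.14). Adamts9 ended without mdx_IL5Tg S1, mdx_IL5Tg S3, mdx S4, mdx S6 or IL5Tg S9 (up to 0.13), Adamts1 without these or IL5Tg S7 (up to 0.16), Adamts4 without any library but mdx_IL5Tg S2 (up to 0.15) and Adamts20 without any but mdx S5 or IL5Tg S9 (up to 0.15). Of the 7, Adamts5 (1.16, SE 0.31, edgeR adjusted p = 0.023) and Adamts15 (1.51, SE 0.35, edgeR adjusted p = 0.014) were also called higher by edgeR in mdx against IL5Tg. The first ended without mdx S4, mdx S6 or any IL5Tg library (up to 0.093) and the second without IL5Tg S8 (adjusted p = 0.055). Adamts8 gave 1.15 there (edgeR adjusted p = 0.051), and 8 of 18 alternatives called it higher, DESeq2 among them (1.11, adjusted p = 0.021). Voom quality weights also called Adamts1, Adamts4 and Adamts20 higher there (adjusted p = 0.016, 0.036 and 0.0072).

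Adamts1 and Adamts5 lie 53.1 kb apart on chromosome 16, and Adamts15 and Adamts8 lie 20.1 kb apart on chromosome 9. Adamts6, which binds fibrillin, and Adamts18 were called by edgeR in no comparison, with log2 values of -0.66 and -1.16 in mdx_IL5Tg against mdx (adjusted p = 0.16 and 0.25); voom quality weights and library totals only called Adamts6 lower there (adjusted p = 0.033 and 0.044). Adamts13, Adamts16 and Adamts19 were under the filter.

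Among the Adamts-like genes, Adamtsl4 (ENSMUSG00000015850.11, chromosome 3, 95676201 to 95687917), which binds fibrillin-1, went against the rest. It was at 22.3, 22.0 and 17.5 CPM in mdx_IL5Tg, 4.77, 6.59 and 5.67 CPM in mdx and 15.4, 14.8 and 26.2 CPM in IL5Tg. The other 6 libraries, which overlapped, were above those of mdx. It was higher in mdx_IL5Tg than in mdx by 1.86 (edgeR adjusted p = 0.00082, SE 0.25) and lower in mdx than in IL5Tg (log2 -1.73, SE 0.25, edgeR adjusted p = 0.0011), and both calls held in every alternative. Adamtsl1 was at 1.60, 2.01 and 1.28 CPM in mdx_IL5Tg, 5.90, 5.39 and 4.73 CPM in mdx and 2.21, 1.23 and 2.35 CPM in IL5Tg. The mdx libraries were above the other 6, with -1.71 (edgeR adjusted p = 0.0041, SE 0.31) in mdx_IL5Tg against mdx and 1.47 (edgeR adjusted p = 0.0081, SE 0.31) in mdx against IL5Tg, which also held throughout.

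Adamtsl5 was lower in mdx_IL5Tg than in mdx (log2 -2.26, SE 0.58, edgeR adjusted p = 0.02) and higher in mdx than in IL5Tg (1.93, SE 0.58, edgeR adjusted p = 0.037), at means of 0.308 ± 0.0446, 1.49 ± 0.801 and 0.381 ± 0.233 CPM in mdx_IL5Tg, mdx and IL5Tg (SD, n = 3). The first call ended without mdx_IL5Tg S1, or with mdx S5 and IL5Tg S7 both left out (adjusted p 0.052 to 0.093), and the second without mdx_IL5Tg S1, mdx S4, mdx S5 or any IL5Tg library (0.051 to 0.12). Adamtsl2 and Adamtsl3 were called by edgeR in no comparison. Adamtsl2 was called lower in mdx_IL5Tg against mdx with DESeq2 and limma voom (adjusted p = 0.039 and 0.041) and higher in mdx against IL5Tg (0.04 and 0.048), and voom quality weights called Adamtsl3 lower in mdx_IL5Tg against mdx (-0.77, adjusted p = 0.03). In mdx_IL5Tg against IL5Tg, edgeR, DESeq2 and both forms of voom called 0 of the 5 Adamtsl genes, and 0 were at an unadjusted p under 0.05.

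The genes of a library share its cells and its RNA, and many ranked the libraries alike. Of the 28 genes lower in mdx_IL5Tg against mdx, 21 were highest in S2 and 21 lowest in S3 among the mdx_IL5Tg libraries, and 18 were highest in S4 among the mdx libraries. The order was not particular to them. Of all 55 tested genes, 35 were highest in S2, 35 lowest in S3 and 30 highest in S4 within the same groups. Within IL5Tg, 17 of the 28 were lowest in S8, with 12 highest in S7 and 12 in S9. Of the 55, 29 were lowest in S8, with 22 highest in S7 and 20 in S9. The fibroblast marker sum was also highest in S2 and lowest in S3 within mdx_IL5Tg, at 3010 and 819 CPM. In mdx it was highest in S5, at 10700 CPM. In IL5Tg it was highest in S9 and lowest in S8, at 2300 and 1010 CPM. Muscle fibre markers, of which 8 of 10 tested were lower in mdx_IL5Tg against mdx and 10 higher in mdx against IL5Tg, with 6 higher and 0 lower in mdx_IL5Tg against IL5Tg, summed to 16.6 to 20.1, 32.7 to 67.3 and 5.18 to 6.17 CPM in mdx_IL5Tg, mdx and IL5Tg. Their part in the results was not tested.

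**Figure D5:**
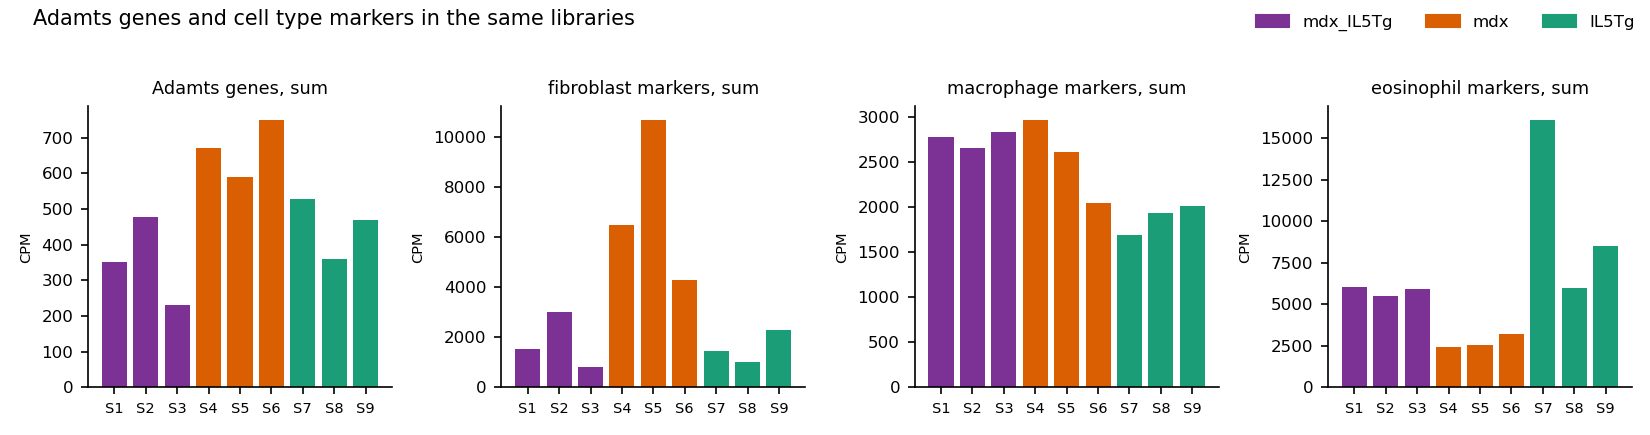
Summed CPM of the 16 tested Adamts genes and of fibroblast, macrophage and eosinophil markers in each library (bars, coloured by group, axes from 0). Fibroblast markers and Adamts genes are highest in the 3 mdx libraries, the macrophage sums are closer together, though 15 of 19 single macrophage markers were lower in mdx_IL5Tg against mdx, and eosinophil markers are lowest in mdx and highest in IL5Tg S7.

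Genes around these families were followed in 6 lists. For these lists and the marker sets above, the shares of all genes tested serve as background. They were 4.35% higher and 2.87% lower in mdx_IL5Tg against IL5Tg. In mdx_IL5Tg against mdx they were 10.1% and 11.5%, and in mdx against IL5Tg 11.8% and 8.96%. Of 13 tested activators and cofactors of metalloproteases, 2 were higher and 0 lower in mdx_IL5Tg against IL5Tg, 3 higher and 5 lower in mdx_IL5Tg against mdx (median log2 difference -0.22), and 5 higher and 2 lower in mdx against IL5Tg. Furin, the convertase that removes the propeptide of membrane-type MMPs and ADAMs, averaged 1510 ± 125 CPM in mdx_IL5Tg, 634 ± 19.7 CPM in mdx and 966 ± 141 CPM in IL5Tg (SD, n = 3). Furin was higher in mdx_IL5Tg than in mdx by 1.25 (edgeR adjusted p = 0.00032) and than in IL5Tg by 0.64 (edgeR adjusted p = 0.031). Plaur, the urokinase receptor, was higher in mdx_IL5Tg than in mdx by 1.89 (edgeR adjusted p = 0.00032), while Plau, urokinase itself, was lower (log2 -1.40, edgeR adjusted p = 0.014). Bsg, known to induce MMPs in neighbouring cells, was higher in mdx_IL5Tg than in mdx by 1.18 (edgeR adjusted p = 0.00094) and than in IL5Tg by 1.15 (edgeR adjusted p = 0.0057).

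Of the 7 tested iRhoms and tetraspanins that carry Adam17 and Adam10 to the surface, 1 was higher and 1 lower in mdx_IL5Tg against mdx. In mdx against IL5Tg 2 were higher and 1 lower, and in mdx_IL5Tg against IL5Tg 0 were called. In mdx_IL5Tg against mdx, Tspan14, a partner of Adam10, was higher by 0.88 (edgeR adjusted p = 0.0027). Rhbdf1, the iRhom of stromal and epithelial cells, was lower in that comparison (log2 -1.52, edgeR adjusted p = 0.0084). Both were called in the other direction in mdx against IL5Tg. Of 21 tested membrane proteins known to be shed, 6 were higher in mdx_IL5Tg against IL5Tg, 1 was higher and 10 lower in mdx_IL5Tg against mdx, and 12 were higher in mdx against IL5Tg. Il1r2, a decoy receptor, averaged 268 ± 15.1 CPM in mdx_IL5Tg, 47.2 ± 6.4 CPM in mdx and 66.0 ± 14.5 CPM in IL5Tg (SD, n = 3), and was higher in mdx_IL5Tg by 2.51 against mdx (edgeR adjusted p = 9.4e-06) and by 2.02 against IL5Tg (edgeR adjusted p = 0.00054). Fas and Notch1 were higher in mdx than in IL5Tg by 1.46 and 1.53 (edgeR adjusted p = 1.9e-05 and 0.00022). Csf1r and Mertk of this list are macrophage markers as well.

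Among 19 tested matrix substrates, 15 were lower in mdx_IL5Tg against mdx (median log2 -1.59) and 15 higher in mdx against IL5Tg (median 1.96); 2 were higher in mdx_IL5Tg against IL5Tg. Lamb1, a laminin chain of basement membranes, averaged 30.5 ± 16.0 CPM in mdx_IL5Tg, 83.0 ± 9.19 CPM in mdx and 13.5 ± 1.94 CPM in IL5Tg (SD, n = 3), and Col4a1, a chain of type IV collagen, 402 ± 209, 1010 ± 214 and 184 ± 21.6 CPM in the same order. Col1a1, Col1a2, Col3a1 and Dcn of this list are also fibroblast markers. Of 18 other tissue proteases, 4 were higher and 1 lower in mdx_IL5Tg against IL5Tg, 2 higher and 7 lower in mdx_IL5Tg against mdx, and 8 higher and 0 lower in mdx against IL5Tg. Ctss and Lgmn, lysosomal proteases abundant in macrophages, were higher in mdx than in IL5Tg by 7.12 and 3.47 (edgeR adjusted p = 0.00022 and 9.1e-05).

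Of 10 tested inhibitors of other proteases, 3 were higher and 2 lower in mdx_IL5Tg against mdx. In mdx_IL5Tg against IL5Tg 2 were higher and 0 lower, and in mdx against IL5Tg 2 were higher and 3 lower. Serpinb2, Cst7 and Cst3, inhibitors of plasminogen activators and of cysteine proteases, were higher in mdx_IL5Tg than in mdx by 1.44, 2.09 and 1.09 (edgeR adjusted p = 0.00014, 0.00024 and 0.00039), as Timp2 was.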

How the data were processed

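RNA of eosinophils sorted from quadriceps muscle was measured in 9 libraries, 3 per group. Per the submitters' processing notes, the build was mm10 and the tools were RSEM 1.3.0, STAR 2.5.3, cutadapt 2.10 and limma. Neither the annotation nor whether counting used strand is given in the sources used here. The deposited values are expected counts per gene from the authors; 6.03% were not whole, and all were rounded. Columns were tied to groups by their names.

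From these, edgeR 4.0.16 (R 4.3.3) gave normalised CPM (TMM factors) and quasi-likelihood tests in 1 robust fit, after a low-count filter (filterByExpr, minimum count 10), with Benjamini-Hochberg adjustment over 15886 genes and a threshold of 0.05. Levels per kilobase used exon lengths from GENCODE M21 (GRCm38; 84 of 84 genes matched). Within groups, libraries differed by more than sampling noise. P-values set each difference between groups against the spread between these replicates, estimated over all groups together. Named genes were those called in at least 1 comparison, the 3 highest of each family, and up to 4 of each pathway list with the smallest p; 1 gene of these lists is not reported here. The genes and lists were chosen with earlier results of these data known. Alternatives used DESeq2 1.42.0, limma 3.58.1, other scalings and filters, and libraries left out. The scripts were tested on simulated data. Promoter sequences are from RefSeq; 36 of 55 tested genes matched. Exact intervals of count ratios are at 95%.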

Additional observations from a re-analysis of the deposited data

How the results depend on the processing

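Of the 68 calls of metalloprotease and inhibitor genes, 46 held in every alternative other than those that left out 1 library at a time. The alternatives counted there include the fit without mdx S5 and IL5Tg S7 and the fits of only the groups compared. When each library was also left out in turn, 29 held. The counts moved most in mdx_IL5Tg against IL5Tg. There the 7 called genes became 11 with DESeq2 and 12 with voom quality weights, and the 1147 of all genes became 2464, 4294, 1816 with only the groups compared, and 1739 with mdx S5 and IL5Tg S7 both left out. The 1 lower gene became 2 with only the groups compared, 3 without a filter, 3 with library totals only, 4 with DESeq2 and 5 with voom quality weights. With voom quality weights, the 3433 genes called in mdx_IL5Tg against mdx became 6929 and the 3298 in mdx against IL5Tg became 5498. The 3 lower genes in mdx against IL5Tg became 5 with DESeq2 and 6 with voom quality weights. The cause was not tested.

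Leaving out 1 library at a time gave 4 to 12 called genes in mdx_IL5Tg against IL5Tg (higher 4 to 10, lower 0 to 3; all genes 110 to 2641). In mdx_IL5Tg against mdx it gave 13 to 33 (higher 5 to 6, lower 8 to 27; all genes 1521 to 4057), and in mdx against IL5Tg 17 to 30 (higher 13 to 26, lower 3 to 4; all genes 1961 to 3837). These fits have fewer samples. With library totals only, the median of all genes was -0.268, -0.455 and 0.116, beside -0.05, -0.132 and 0.013. No paired analysis was possible because the count columns carry no replicate number of the titles. Genes with few counts, such as Adam3 in mdx and Mmp12 in IL5Tg, are limited by depth.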
